A study of Bos taurus with 8 samples.

Results

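The telomere-proximal last megabase of the 29 bovine autosomes was described in MIRA-Seq libraries of dermal fibroblast cultures. For each of chromosomes 1 to 29, every 3 kb window whose start lay less than 1000000 bp below the largest window start of that chromosome was taken, and the 29 windows that run across a chromosome boundary were dropped. This gave 9655 windows, between 332 and 333 per chromosome, of the 902984 windows of the UMD v3.1 assembly. MIRA-Seq enriches sonicated DNA that carries methylated CpG sites with the MBD2b/MBD3L1 protein complex and sequences what was bound. The fibroblasts were grown from skin of 4 Holstein (a dairy breed) and 4 Angus (a beef breed) heifers, were not treated, and were sampled at passage 5. Each animal gave 1 library, called here Holstein 1 to 4 and Angus 1 to 4. By the study's methods the heifers were of about the same age when skin was taken. Each library is thus 1 culture of 1 animal, and breed differences cannot be told apart from differences between cultures.

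Bovine autosomes are acrocentric, with the centromere close to the start of the sequence, so the last megabase is the end of the long arm. In mammals the regions near chromosome ends are often rich in genes and in CpG sites, and CpG sites in gene bodies and between genes are mostly methylated in somatic cells, while CpG islands at active promoters are mostly free of methylation. An enrichment assay reads the number of methylated CpG sites in a fragment, so a window with many methylated CpG sites gives more reads than a window with few. CpG density was not measured here, and neither it nor the copy number of the DNA can be told apart from the methylation level in these values.

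The position of the windows was compared with a later assembly by gene names. Of the 371 gene names without a LOC number whose windows all lay in a last megabase, 321 were found in the RefSeq gene table of ARS-UCD2.0. Of these, 319 lay on the same chromosome, 309 were among the last 100 genes of that chromosome, and 0 were among the first 100. Chromosome 11 was the exception, where 11 of 21 matched names were among the last 100 genes.

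Library totals over all windows were 18691111 to 35525554 reads, and values are given as CPM, the reads of a window scaled to these totals. The last megabases held 433301 to 1092520 reads per library, or 1.99 to 3.39% of the reads, and the median window held 24 to 68 reads. The counting floor was set at 3 reads, or 0.0844 to 0.161 CPM per library, and covers counting error only. In some libraries a few windows took most of the reads. The 1% of windows with most reads took 69.0% in Holstein 1 and 72.4% in Angus 3, against 46.8 to 57.4% in the other libraries. These libraries also had the lowest mean levels over the last megabases, and the part of the concentration of reads in those levels was not tested.

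The mean level over the last megabases was 2.27, 3.06, 2.88 and 3.19 CPM per window in the Holstein libraries and 2.51, 2.97, 2.06 and 3.51 CPM per window in the Angus libraries, given here and throughout in the order of the animal numbers 1 to 4. The breeds overlapped, with Angus holding both the lowest and the highest library. The mean was 2.85 ± 0.406 CPM for Holstein and 2.76 ± 0.621 CPM for Angus (SD, n = 4 each), a difference of 0.0868 CPM that was smaller than the spread between libraries (exact two-sided permutation test, p = 0.857). The smallest p this design allows is 0.0286. With TMM library sizes, which rescale every window of a library alike, the difference was -0.155 CPM (exact permutation test, p = 0.314).

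The last megabases had a higher methylation signal than the rest of the same chromosomes in every library. The interior was taken as all windows more than 1 Mb from both ends (817906 windows), and per library the log2 ratio of the mean levels was averaged over the 29 autosomes. The log2 ratio was 1.24, 1.36, 1.39 and 1.46 in the Holstein libraries and 1.21, 1.44, 1.26 and 1.59 in the Angus libraries. All 8 libraries were above 0, and the mean of 1.37 ± 0.130 (SD, n = 8) corresponds to 2.58-fold (exact two-sided sign-flip permutation test, p = 0.00781, the smallest the test can give with 8 libraries). This test asks whether the libraries agree on the ratio and leaves out its spread between chromosomes. Breeds did not differ beyond their spread in this ratio, at 1.36 ± 0.0922 for the Holstein cultures and 1.38 ± 0.176 for the Angus cultures (exact permutation test, p = 0.857). Without Holstein 1 and Angus 3 the mean log2 ratio was 1.41.

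The megabase next to the last one was almost as high. Against it the last megabase had a mean log2 ratio of 0.15 ± 0.0235 (SD, n = 8), or 1.11-fold, above 0 in 8 of 8 libraries (exact sign-flip permutation test, p = 0.00781). This ratio was averaged over chromosomes. By the mean over all windows, Angus 3 alone was lower in the last megabases than in the adjacent ones, at 2.06 and 2.15 CPM. On 17 chromosomes the last megabase was above the adjacent one in all 8 libraries, and on 10 chromosomes it was below it in all 8. With the highest 1% of autosomal windows left out, this log2 ratio shrank to 0.0299.

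The first megabase, next to the centromere, was lower. Against it the log2 ratio was 0.89 ± 0.148 (SD, n = 8), or 1.85-fold, again above 0 in 8 of 8 libraries (exact sign-flip permutation test, p = 0.00781). The last megabase lay above the first in all 8 libraries on 16 chromosomes and below it in all 8 on 7 chromosomes. After Benjamini-Hochberg adjustment over the 6 comparisons with the interior, its window classes and the other megabases, each p remained 0.00781.

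The difference was found in windows with and without genes. Coding exon windows made up 23.3% of the last megabases against 13.2% of the interior, and windows with a gene name 47.2% against 39.9%. Within coding exon windows the last megabase was 2.96-fold higher than the interior, within gene windows without a coding exon 3.35-fold, and within windows without a gene 2.46-fold, each in 8 of 8 libraries (exact sign-flip permutation test, p = 0.00781). For these comparisons chromosomes with too few windows of a class were left out, which left 26, 27 and 29 chromosomes.

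Within the last megabases, coding exon windows had the highest level, with a mean of 3.97 CPM (2.94 to 5.14 CPM over the libraries). Gene windows without a coding exon had 2.29 CPM (1.701 to 2.76 CPM), and windows without a gene had 2.53 CPM (1.84 to 3.13 CPM). The medians were 3.06, 1.35 and 1.23 CPM, so gene windows without an exon and windows without a gene changed places between mean and median. In the interior the medians of the same classes were 0.472, 0.309 and 0.256 CPM.

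**Figure D1:**
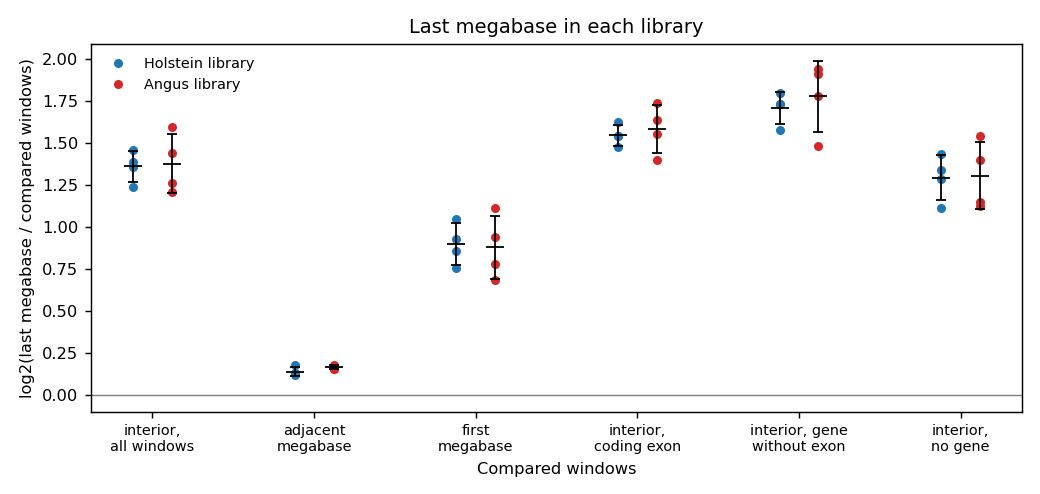
Log2 ratio of the last megabase to the compared windows in each library (points), averaged over chromosomes, with the mean and SD of each breed (black, n = 4). All points lie above 0, and the points for the adjacent megabase lie closest to it, between 0.12 and 0.18.

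Going inward from the end, the median level fell over several megabases. The median window had 1.44 CPM at 1 to 2 Mb from the end, 1.09 CPM at 2 to 3 Mb, 0.830 CPM at 3 to 4 Mb, 0.655 CPM at 4 to 5 Mb and 0.311 CPM at 19 to 20 Mb (means of 8 libraries). Within the last megabase the median was between 1.495 and 1.87 CPM in the 8 bins of 100 kb from 200 to 1000 kb, 1.12 CPM at 100 to 200 kb, and 0.841 CPM in the last 100 kb. The last 100 kb was therefore the lowest bin by the median, whereas by the mean it was the highest, with 5.26 CPM against 2.21 to 3.16 CPM in the other bins. Further in, the mean was uneven, with 3.48 and 4.03 CPM in the blocks at 12 to 14 Mb, where the median was 0.466 and 0.401 CPM.

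The comparison of the last 100 kb with the other 900 kb was chosen after these values were seen. By the mean, the last 100 kb was higher by 1.05 on the log2 scale, in 8 of 8 libraries (exact sign-flip permutation test, p = 0.00781). By the median it was lower, with a log2 ratio of -0.89 after adding 0.1 CPM, and without the highest 1% of windows the ratio of means was -0.45, both in 8 of 8 libraries (exact sign-flip permutation test, p = 0.00781). The high mean came from chromosome 11. With that chromosome left out, the last 100 kb had 2.59 CPM and the other 900 kb 2.51 CPM, a log2 ratio of 0.05 that no longer passed the test (exact sign-flip permutation test, p = 0.125).

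**Figure D2:**
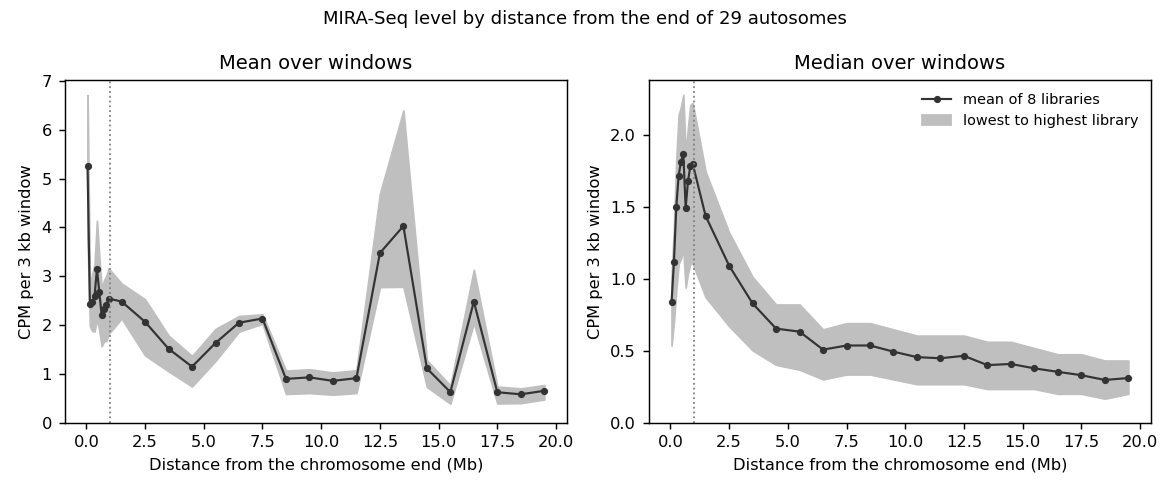
Mean (left) and median (right) CPM per 3 kb window against the distance from the chromosome end, in 100 kb bins for the last megabase (left of the dotted line) and 1 Mb bins further in. The line is the mean of 8 libraries and the band spans the lowest to the highest library, and the last 100 kb stands highest by the mean with 5.26 CPM but has a median of 0.841 CPM.

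Chromosomes differed widely. By mean CPM, the last megabase was higher than the interior on 24 chromosomes and lower on 4 (exact sign-flip permutation test per chromosome with Benjamini-Hochberg adjustment over 29, adjusted p of 0.00839 to 0.0162). This test asks only whether the libraries agree on a chromosome. The share of other 1 Mb blocks that would pass it was not computed. Chromosome 28 did not pass, with a log2 ratio of -0.10 and adjusted p = 0.352 by the same exact permutation test. The highest log2 ratios were on chromosomes 11 (3.81, 14.0-fold), 12 (3.08, 8.44-fold) and 20 (2.95, 7.71-fold). The lowest were on chromosomes 27 (-2.09), 1 (-1.72) and 7 (-0.95), and the fourth lower chromosome was 13 (-0.22).

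The lower calls depended on the measure. The median interior window held only 3 to 12 reads per library, at the counting floor in Holstein 1, so ratios by the median rest on few reads. By the median, the last megabase was higher than the interior on 28 chromosomes and lower on 0, and without the highest 1% of autosomal windows it was higher on 28 and lower on 1. Chromosome 1 then had log2 ratios of 0.56 and 0.57, and chromosome 7 had 0.92 and 0.91. Chromosome 27 had 0.09 by the median and -0.15 without the highest windows. Chromosome 1 shows the gap between the measures, since its interior had a mean of 1.95 CPM and a median of 0.233 CPM, while its last megabase had a mean of 0.596 CPM and a median of 0.383 CPM.

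The last megabase of chromosome 27 (44407767 to 45406766) carried no gene name in any of its 333 windows. Its level was 0.352, 0.620, 0.507 and 0.581 CPM in the Holstein libraries and 0.584, 0.528, 0.312 and 0.488 CPM in the Angus libraries, and the breeds overlapped. The last megabases of chromosomes 13 and 1 had gene names in 12 and 17 of 333 windows. Chromosome 12 (90161422 to 91160621) had gene names in 227 windows and coding exons in 158, with 3.26, 3.98, 3.86 and 4.497 CPM in the Holstein libraries and 3.16, 3.95, 2.71 and 4.93 CPM in the Angus libraries. Chromosome 14 had gene names in 282 windows, the most of all, and a log2 ratio of 1.28. Across the 29 chromosomes the percentage of gene windows and the log2 ratio had a Pearson's r of 0.57 and a Spearman's rho of 0.36, given as a description because the chromosomes share the same 8 libraries.

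Ranked by mean CPM among all consecutive 1 Mb blocks of the same chromosome, the last block was the highest on chromosomes 11, 12, 17, 20 and 26. It was among the highest 10% of blocks on 22 of the 29 chromosomes. By the median window it ranked highest on 10 chromosomes and among the highest 10% on 23. The last block of chromosome 18, a chromosome with a median interior window of 0.472 CPM, ranked 26 of 66 by the mean and 29 of 66 by the median.

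**Figure D3:**
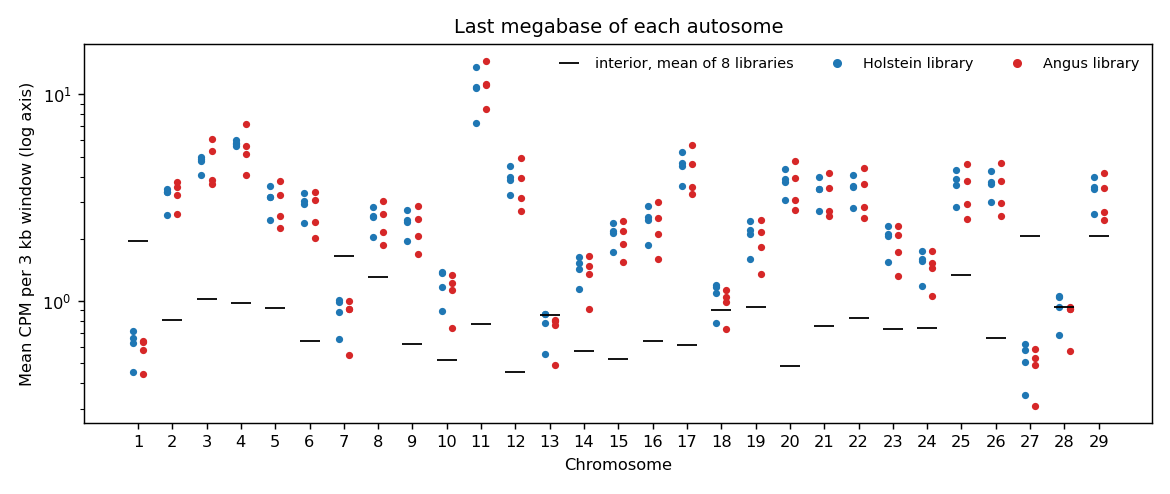
Mean CPM per window in the last megabase of each autosome on a log axis, with 1 point per library and the interior mean of 8 libraries as a black bar. Chromosome 11 is highest, with 7.27 to 14.5 CPM, and chromosome 27 is lowest, with 0.312 to 0.620 CPM.

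**Figure D4:**
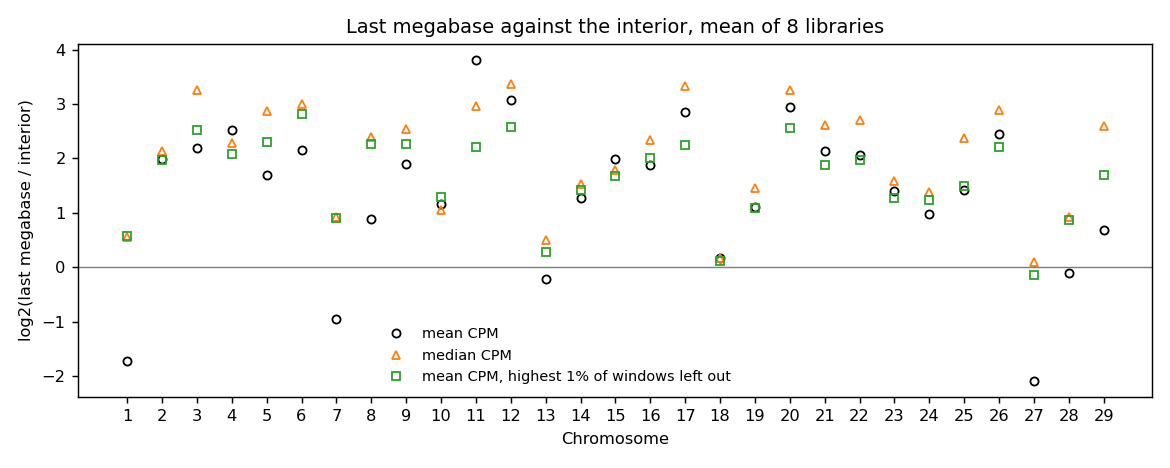
Log2 ratio of the last megabase to the interior of each autosome, as the mean over 8 libraries, by mean CPM, by median CPM and by mean CPM without the highest 1% of windows. Chromosomes 1, 7, 13 and 28 lie below 0 by the mean and above 0 by both other measures.

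Of the 10 windows with the highest mean CPM, 5 lay in the last 24 kb of chromosome 11, where no window carries a gene name. The first of them, chr11:107284685-107287684, held 14635, 37881, 31836 and 40374 reads in the Holstein libraries and 40321, 35132, 30574 and 31729 reads in the Angus libraries. This was 740 to 1698 CPM, and it ranked 26 among all autosomal windows. Together the 8 windows of this stretch (107284685 to 107308684) held 63.3 to 75.5% of the reads of the last megabase of chromosome 11, depending on the library. The other 325 windows of that megabase had 2.37 to 4.38 CPM.

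The other 5 lay on chromosomes 2, 3 and 4. The window chr4:120358205-120361204, which holds exon 16 of WDR60, a dynein subunit gene that acts in cilia, had 559, 595, 486 and 521 CPM in the Holstein libraries and 441, 400, 293 and 725 CPM in the Angus libraries. The breeds overlapped, and Angus held both the lowest and the highest library. Within this window the deepest position was 17.7 times the mean depth, and in the first window of chromosome 11 it was 3.59 times. A further 3 windows carried LOC names, LOC789329 on chromosome 3 (300 CPM), LOC790134 on chromosome 4 (255 CPM) and LOC100298143 on chromosome 2 (216 CPM). The last was chr4:120819305-120822304, without a gene name, at 146 CPM. None of the 10 windows was called between the breeds, with edgeR log2 differences of -0.41 to 0.15 and likelihood-ratio FDR of 1.00. The SE was 0.394 to 0.423, so moderate breed differences in these windows could not be seen.

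The stacking of reads was read from the ratio of the deepest position to the mean depth of a window, over windows with at least 80 reads in the 8 libraries together. Its median was 5.80 over the 8243 such windows of the last megabases and 5.98 over 8289 in the adjacent megabases. This ratio depends on the number of reads in a window, so it was not compared with the interior, where windows hold fewer reads. Windows among the highest 1% of autosomal windows, those above 5.00 CPM, made up 12.9% of the last megabases (1249 windows), 9.16% of the adjacent, 3.85% of the first megabases and 0.825% of the interior. Windows without a single read in 8 libraries numbered 9 in the last megabases.

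Genes of the last megabases were described by the mean CPM over their windows, which is a level per length. There were 518 gene names with all windows in a last megabase, 147 of them LOC names, and 16 further names lay partly inside. Their median was 2.85 CPM per window, against 0.539 for the 23076 genes of the interior, and 460 of the 518 lay above that interior median. Genes with a LOC name had a median of 1.44 CPM (0.381 in the interior). The 11 solute carrier genes (SLC) had 4.55 CPM, with a range of 1.18 to 8.77 CPM (0.774 in the interior). The 15 genes named ZNF, which code for zinc finger proteins, had 1.04 CPM, with a range of 0.228 to 8.47 CPM (0.527 in the interior). No forkhead gene (FOX) lay in the last megabases. Most of the ZNF genes lay on chromosome 18, whose last megabase had a mean of 1.02 CPM. Chromosome 20, at 3.71 CPM, held more of the SLC genes than any other chromosome. The part of the chromosome levels in these family medians was not tested.

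On 27 chromosomes a gene of 3 or more windows and a full gene symbol could be named as the highest of its last megabase. The highest of them was WDR60 on chromosome 4, at 25.9 CPM per window, but 92.2% of its signal came from the exon 16 window. B3GAT1 on chromosome 15, which codes for a glucuronyltransferase that makes the HNK-1 sugar epitope, was next. It had 18.2, 16.8, 16.1 and 18.4 CPM per window in the Holstein libraries and 19.99, 17.7, 19.96 and 19.6 CPM in the Angus libraries. One window held 77.5% of its signal. Its level in Angus was 19.3 ± 1.07 CPM and in Holstein 17.4 ± 1.09 CPM (SD, n = 4 each), and the breeds overlapped.

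SLC12A7 on chromosome 20, a potassium-chloride cotransporter, had 8.77 ± 1.197 CPM per window (SD over 8 libraries). ATP13A2 on chromosome 2, a lysosomal ATPase, had 4.99 ± 1.14 CPM, and CACNG5 on chromosome 19, a calcium channel gamma subunit family member, had 4.57 ± 1.09 CPM. SLC25A46 on chromosome 7, a mitochondrial carrier family member, had 1.18 ± 0.158 CPM. SLC25A46 was thus lower than the median of 2.85 CPM over all 518 gene names of the last megabases. So were the highest such genes of chromosomes 10, 13, 14, 23 and 28.

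ALG12 on chromosome 5, a mannosyltransferase of N-glycan synthesis, had 7.10 ± 1.04 CPM per window. SMPD4 on chromosome 17, a sphingomyelinase, had 8.50 ± 2.07 CPM, and INTS1 on chromosome 25, a subunit of the Integrator complex, had 7.06 ± 1.41 CPM. ATG4B on chromosome 3, a protease of autophagy, had 8.08 ± 1.80 CPM.

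TOLLIP on chromosome 29, an adaptor that restrains Toll-like receptor signalling, had 8.33 ± 1.38 CPM per window, and TFDP1 on chromosome 12, a partner of E2F factors, had 7.25 ± 1.51 CPM. DLL1 on chromosome 9, a Notch ligand, had 4.22 ± 0.924 CPM, and INPP5A on chromosome 26, an inositol phosphatase, had 5.33 ± 1.22 CPM. MZF1 on chromosome 18, a zinc finger transcription factor, had 3.75 ± 0.523 CPM, and IRF4 on chromosome 23, an interferon regulatory factor of lymphoid cells, had 2.67 ± 0.550 CPM. DEPTOR on chromosome 14, an inhibitor of mTOR, had 2.50 ± 0.452 CPM, AGT on chromosome 28, which codes for angiotensinogen, had 1.95 ± 0.390 CPM, and RPS6KA5 on chromosome 10, a kinase, had 1.18 ± 0.222 CPM. Lowest among the 27 was CBLN4 on chromosome 13, a cerebellin of synapses, with 0.393 ± 0.115 CPM. The remaining genes of the 27 were SH3TC1, TSSC1, MAMDC4, TMEM9, AHNAK2, C3H3orf22 and SERPINB11, between 3.74 and 8.88 CPM. A single window held 73.0% of the signal of AHNAK2 and 85.2% of that of SERPINB11.

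The 5 lowest genes had levels per window close to the counting floor of a single window. Over all their windows and libraries they held 115 to 609 reads. UNCX on chromosome 25, a homeobox gene, had 0.177 ± 0.0494 CPM per window, with 115 reads in all over 8 libraries. TFAM on chromosome 28, a mitochondrial transcription factor, had 0.197 ± 0.0923 CPM, TRIM69 on chromosome 10, a tripartite motif gene, had 0.217 ± 0.0797 CPM, PDCD2 on chromosome 9 had 0.251 ± 0.0837 CPM and SERPINB10 on chromosome 24, a serpin, had 0.252 ± 0.0975 CPM.

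**Figure D5:**
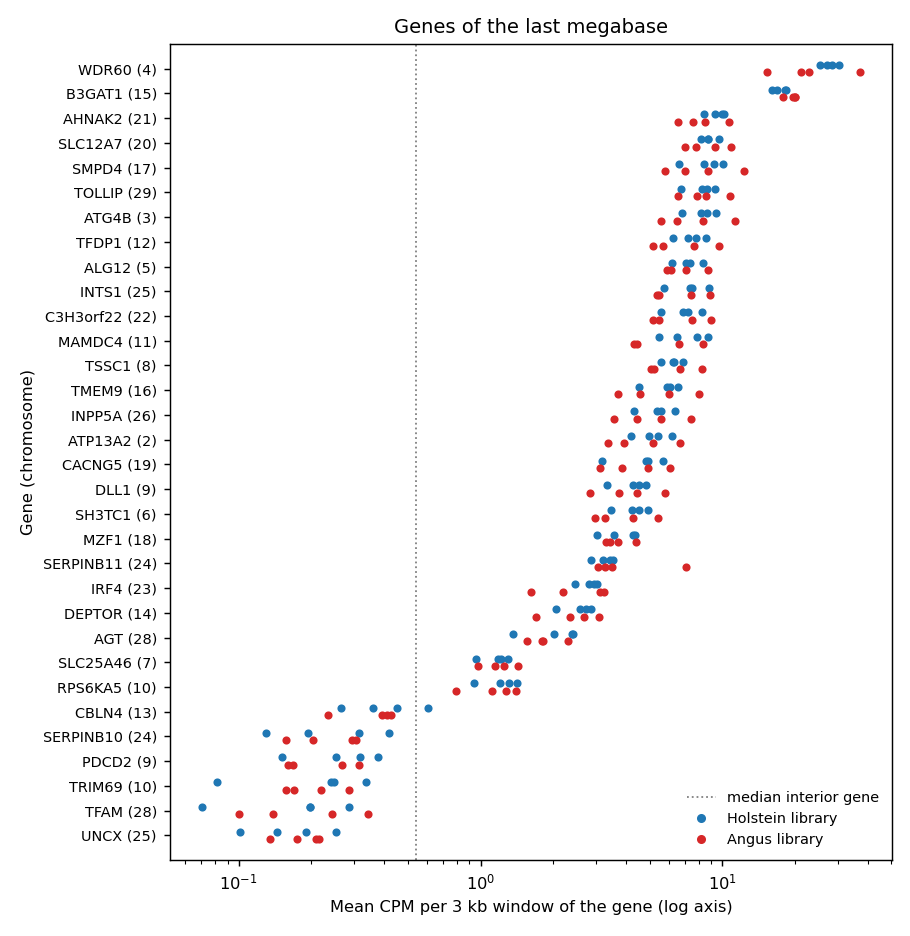
Mean CPM per 3 kb window of the 27 highest genes by chromosome and the 5 lowest genes on a log axis, with 1 point per library. The dotted line is the median interior gene at 0.539 CPM, which 26 of the 27 genes exceed by their mean and the 5 lowest do not.

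The first window of a gene, taken by its strand, was lower than the other windows of the same gene. This comparison was chosen after gene values were seen. Over the 361 genes of 3 or more windows, the first window had 1.58 to 2.87 CPM per library and the other windows 3.22 to 5.23 CPM. The log2 ratio was -0.88 ± 0.0906 (SD, n = 8), below 0 in 8 of 8 libraries (exact sign-flip permutation test, p = 0.00781), and 256 of the 361 genes (70.9%) were lower in their first window. Genes outside the last megabases were not compared in this way, so the values do not show a trait particular to these genes. WDR60 had 0.290 CPM and AHNAK2 0.378 CPM in the first window, whereas ATG4B had 10.7 CPM and INPP5A 7.05 CPM.

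Breeds were compared window by window with edgeR's likelihood-ratio test, fitted on all windows of the series with CPM of at least 1 in at least 4 libraries. Of the 9655 windows of the last megabases, 6128 (63.5%) passed that filter, against 12.8% of all windows. At FDR < 0.1 and a fold change of at least 2, 3 of the 6128 were called, 2 higher in Holstein and 1 higher in Angus, which is 0.0490%. Over all 115360 windows tested 0.231% were called, 0.0390% higher in Holstein and 0.192% higher in Angus. The fit on all windows also holds windows off the autosomes, and with autosomes only the same 3 windows were called and the background was 0.105%, 0.0326% higher in Holstein and 0.0724% higher in Angus. With no fold minimum 13 windows passed (0.212%, background 0.368%). At unadjusted p under 0.05 there were 251 windows (4.10%, background 4.94%). Breeds did not overlap in 35 windows with Holstein higher (0.571%, background 1.11%) and in 4 with Angus higher (0.0653%, background 0.208%). Unlike the fits, the counts without overlap used CPM on library totals, not TMM. On library totals the median log2 difference over all tested windows was 0.14, toward Holstein, and its part in these counts was not tested.

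The window with the lowest FDR, chr28:45319965-45322964, lies 990 kb from the end of chromosome 28 and carries no gene name. It held 3.84, 3.12, 4.31 and 5.57 CPM in the Holstein libraries and 1.75, 2.57, 1.07 and 1.98 CPM in the Angus libraries, without overlap between the breeds. The fold change was 2.11 (log2 1.08, SE 0.185, edgeR likelihood-ratio FDR 2.52e-05, quasi-likelihood FDR 0.00930). Without Holstein 4 the log2 fold change was 0.99, below the fold minimum, with FDR 0.00186.

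The window chr24:62388931-62391930, 324.5 kb from the end of chromosome 24 and without a gene name, held 0.961, 1.43, 1.82 and 2.20 CPM in the Holstein libraries and 1.08, 0.452, 0.302 and 0.642 CPM in the Angus libraries. Angus 1 lay above Holstein 1, so the breeds overlapped. The fold change was 2.35 (log2 1.23, SE 0.271, edgeR likelihood-ratio FDR 0.00445, quasi-likelihood FDR 0.0817). It reached 1 CPM in 4 libraries, the least the filter allows, so it was not tested when Holstein 2, Holstein 3, Holstein 4 or Angus 1 was left out. In the other 4 fits that left out a library it was called, with FDR of 0.00139 to 0.0804.

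The window higher in Angus, chr2:136972734-136975733, lies 87 kb from the end of chromosome 2. It held 0.556, 1.99, 1.14 and 1.29 CPM in the Holstein libraries and 3.98, 2.64, 0.437 and 3.103 CPM in the Angus libraries. Angus 3 was the lowest of all 8 libraries, and the other 3 Angus libraries were above every Holstein library. The log2 fold change was -1.11 (SE 0.311, edgeR likelihood-ratio FDR 0.0989), and with the quasi-likelihood test the FDR was 0.275, so the call did not hold there. A window 18 kb further toward the end, in LOC100298143 (chr2:136990734-136993733), had a log2 fold change of -0.86 and FDR 0.0809, below the fold minimum.

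The number of calls depended on single libraries and on the filter. Without Angus 3, 13 of 6123 windows were called (0.212%, background 0.183%), and these held the 3 called with all libraries. Without Holstein 4, 1 was called, and it was none of those 3. With no CPM filter 14 of 9646 windows were called (0.145%, background 0.102%). With total counts in place of TMM the median log2 difference over all tested windows moved from -0.002 to 0.14.

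The 10 windows that passed FDR < 0.1 below the fold minimum included 6 with a gene name. Higher in Holstein were windows in IFITM3 on chromosome 29, an interferon-induced membrane protein gene that restricts viral entry (1.71-fold), AHRR on chromosome 20, the repressor of the aryl hydrocarbon receptor (1.78-fold), and PWWP2B on chromosome 26 (1.49-fold). Higher in Angus were windows in HDLBP on chromosome 3, which codes for vigilin (1.91-fold), HTRA3 on chromosome 6, a secreted serine protease (1.65-fold), and LOC100298143 on chromosome 2 (1.82-fold). The likelihood-ratio FDR of these 6 was 0.0297 to 0.0809, and none passed 0.1 with the quasi-likelihood test.

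As whole megabases the chromosome ends did not separate the breeds. None of the 29 last blocks passed FDR < 0.1 with edgeR's likelihood-ratio test (0%, background 0% of 2528 blocks), and none did with the quasi-likelihood test or DESeq2. At unadjusted p under 0.05 the count was 0 of 29, against 1.15% of all blocks. The log2 differences, Holstein over Angus, ran from -0.28 to 0.01 with a median of -0.08 (all blocks -0.003), and 28 of 29 were below 0. With total counts in place of TMM the range was -0.10 to 0.16, with a median of 0.08 for the last blocks and 0.15 for all blocks. The median of the last blocks minus that of all blocks was -0.0767 with TMM and -0.0716 with total counts. Without Angus 1 the last blocks had a median of -0.21 (all blocks 0.0077), and without Angus 4 a median of 0.04 (all blocks 0.0095). The difference between the last blocks and all blocks was not tested. The SE of a block was 0.0545 to 0.257.

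Summed over genes, 0 of the 483 genes tested passed FDR < 0.1 and a fold change of 2 with edgeR's likelihood-ratio test (background 0.0567%), and 0 with the quasi-likelihood test or DESeq2. At unadjusted p under 0.05 there were 14 genes (2.90%, background 2.08%). Without Angus 1 there were 84 of 478 (17.6%, background 6.45%), 8 higher in Holstein and 76 higher in Angus. The other fits that left out a library gave 7 to 12 such genes, with 295 to 427 over all genes tested. The 29 named genes that could be tested had log2 differences of -0.69 to 0.11. The lowest of these was SERPINB11 on chromosome 24, a serpin gene with 2.85, 3.52, 3.43 and 3.20 CPM per window in the Holstein libraries and 3.06, 3.498, 7.09 and 3.27 CPM in the Angus libraries. Angus 3 alone was high there, and without it the log2 difference was 0.01. IFITM3 had 2.23, 2.34, 2.46 and 3.41 CPM in the Holstein libraries and 1.08, 2.40, 0.840 and 1.23 CPM in the Angus libraries, where Angus 2 lay within the Holstein range. These are also the CPM values of its window described above, so gene and window are the same measurement. In the window fit its likelihood-ratio FDR was 0.0559. In the gene fit the log2 fold change of IFITM3 was 0.77 (SE 0.258, FDR 0.727), and without Angus 2 the gene was called, at 1.10 with FDR 0.0181.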

How the data were processed

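MIRA-Seq counts of 8 libraries were used, 4 Holstein and 4 Angus, grouped by the sample titles. The members and lists were chosen with earlier results of these data known. The authors trimmed and aligned reads to UMD v3.1 with NextGENe 2.3.4 and deposited raw counts per 3 kb window without normalization. Deposited mean and maximum coverage, a signal not scaled for depth, was used only for stacking of reads. CASAVA 1.7 is named in the submitters' processing notes. The handling of duplicate and multiply matching reads is not given in the sources used here, and no input library was used here. No sequence is shown, because no UMD v3.1 genome was used here.

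CPM was computed on totals over the 902984 windows (18691111 to 35525554 reads). Breeds were compared in R 4.3.3 with edgeR 4.0.16 (TMM, likelihood-ratio test, CPM of at least 1 in at least 4 libraries, FDR < 0.1, fold change of at least 2) over all windows, over 1 Mb blocks counted inward from each end (no fold minimum) and over gene sums. Fits were tested on simulated data. Levels were compared in Python 3.11.15 (numpy 2.4.6, scipy 1.17.1) by exact sign-flip tests within libraries and exact permutation tests between breeds. Medians had 0.1 CPM added before ratios. The standard error is the log2 fold change over the root of its chi-square. A gene's level is the mean CPM over its windows.

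Named were the 3 highest and 3 lowest chromosomes, the 10 highest windows, called windows, and per chromosome the highest gene of 3 or more windows without a LOC name, with the 5 lowest such genes, and name families LOC, ZNF, SLC and FOX. Alternatives were quasi-likelihood tests, DESeq2 1.42.0, other scalings and filters, medians, windows left out, a replicate block and each library left out. A search for repeat deposits of 1 library within a breed found none, since the counts of each pair differed by more than counting noise (chi-square 1.93 to 4.26 per window).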

Additional observations from a re-analysis of the deposited data

Results flagged for a closer look

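Among the values named in the report, 116 breed groups of 4 libraries were searched for a library that stands far from the other 3, and 4 did. Chance alone gives about 5% of such groups. Of the 4, 3 were values of Angus 3. Its log2 ratio of the last megabase of chromosome 7 to the interior was -1.88, against -0.80 to -0.60 in the other Angus libraries. In the window of chromosome 11 that starts at 107290685 it had 105 CPM, against 160 to 170 CPM. In SERPINB11 it had 7.09 CPM per window, against 3.06 to 3.498 CPM. The fourth value was Angus 2 in B3GAT1, with 17.7 CPM per window against 19.6 to 19.99 CPM. Angus 3 was also the library with the highest share of reads in the top 1% of windows (72.4%), and the part of that concentration in these values was not tested. No ratio of the last megabase to other windows differed between the breeds in an exact permutation test.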

How the results depend on the processing

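The higher level of the last megabase than the interior, the adjacent and the first megabase, and in each of the 3 window classes, kept its direction and passed the test under every alternative run. The test asks whether the 8 libraries agree, not whether the chromosomes do. Against the adjacent megabase, 17 chromosomes were above in all 8 libraries and 10 below. That log2 ratio was 0.0299 without the highest 1% of windows. Pooling windows over chromosomes was an alternative for the interior only. For the interior the log2 ratio was 1.34 in the last 500 kb, 1.55 with windows pooled over chromosomes, 1.64 without the highest 1% of windows and 2.03 by the median. The median interior window held only 3 to 12 reads per library. The breed difference in mean level was 0.0868 CPM, -0.155 CPM with TMM library sizes, -0.0470 CPM with autosomal totals and -0.147 to 0.336 CPM when each library was left out. The breed difference in the log2 ratio to the interior was -0.0153 and ran from -0.0713 to 0.0573 without single libraries. None of these passed an exact permutation test.

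By the median, the log2 ratio to the interior turned to 0.56 on chromosome 1, 0.92 on chromosome 7 and 0.0890 on chromosome 27. Without the highest 1% of windows it was 0.57 on chromosome 1 and 0.91 on chromosome 7. The last 100 kb against the other 900 kb turned from 1.05 to -0.89 by the median and -0.45 without the highest 1% of windows, and was 0.0543 without chromosome 11. The log2 difference of SERPINB11 was -0.69, and -0.87 to 0.0051 when each library was left out, the last without Angus 3.

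The count of called windows went from 3 to 1 with DESeq2 and 14 with no CPM filter. It was 1 with CPM of at least 1 in all 8 libraries and 1 to 13 when each library was left out. The 1 window called without Holstein 4 was none of the 3. The window on chromosome 2 lost its call in most of these fits, and the cause was not tested. DESeq2 gave no adjusted p for the window on chromosome 24, which was not tested in 4 of the 8 fits that left out a library, nor with CPM of at least 1 in all 8 libraries. The count of called genes was 0 to 1 when each library was left out, with IFITM3 called without Angus 2. With total counts the median log2 difference over all genes moved from -0.018 to 0.15. Relative to that median, 24 of the 29 named genes tested were below 0 under both scalings, and 0 changed sign.

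The breeds share the numbers 1 to 4 in the labels, but same-numbered libraries did not deviate together (correlations of -0.141 to 0.153, mean 0.0467, against -0.0153 for different numbers). With the replicate number as a block, 2 windows, 0 blocks and 0 genes were called. The depth of 24 to 68 reads in the median window limits what can be seen in single windows.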
